A study of Mus musculus with 6 samples.

Results

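The genes that encode the proteasome were followed across 6 RNA-seq libraries of mouse primary myoblasts. They were taken by name, as every gene of the deposited table with symbol Psm followed by a letter a to g and a number. Psmb8 and Psmb9 were left out. The set was proposed with earlier results of these data known. The naming rule found 46 of 54834 genes. Of these, 44 had a mean of at least 1 FPKM over the libraries, a level that 11967 genes reached, where FPKM is the fragment count of a gene scaled to transcript length and to sequencing depth. The other 2 are known from other tissues. Psma8, the alpha subunit of testis, was listed at 0 in every library, and Psmb11, the beta subunit of the thymic cortex, was listed at 0.0107 in both libraries at 20% pO2 and at 0 in the other 4.

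The cells were myoblasts, the proliferating precursors that muscle stem cells give rise to, and all of them carried the Pax7-ZSGreen genotype, in which a green fluorescent protein reports on the stem cell gene Pax7. They had been kept in growth medium for more than 2 weeks at 20% pO2 (normoxia), 4% pO2 or 1% pO2 (chronic hypoxia). At each level the cells received either vehicle (0.1% DMSO) or PT2385 at 1 μM for 48 h. PT2385 is a small molecule that keeps HIF-2α, an oxygen-regulated transcription factor, from pairing with its partner ARNT. Each of the 6 conditions is 1 library, made from RNA pooled over several cultures, so the spread between cultures of one condition was not measurable, and no library holds myofibres or whole muscle.

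The proteasome degrades proteins that carry ubiquitin chains. Its core particle is a barrel of stacked rings of alpha subunits, which form the gate, and beta subunits, some of which carry the cutting sites. A regulatory particle caps the barrel, with a base that contains a ring of ATPases to unfold the substrate and a lid that removes ubiquitin. Other caps, the activators, open the gate without ATP, and dedicated chaperones assemble the parts. In skeletal muscle the pathway is known for the breakdown of contractile proteins during atrophy, and in myoblasts for the turnover of short-lived regulators of the cell cycle and of differentiation.

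Depth was estimated from the size of the smallest steps between values at 20.3 to 23.8 M fragments per library. Myoblast markers were present, with Myod1 at 501 to 951 FPKM, Des at 115 to 198 FPKM and Pax7 at 16.5 to 36.3 FPKM, while Myf5 did not exceed 0.481 FPKM. The summed level of the 7 myoblast markers was 1267 and 1290.4 FPKM at 20% pO2, 760.1 and 846 FPKM at 4% and 802 and 842 FPKM at 1%. Of 8 leukocyte markers, Adgre1, Cd52 and Tyrobp were at 0 throughout and Ptprc reached 0.00994 FPKM, but Laptm5 was at 80.7 and 91.5 FPKM at 4% pO2 against 0.535 and 0.465 FPKM at 20%. These markers also differed between pO2 levels, but not along a single course. With each treatment Myod1, the largest part of the summed level, was lowest at 4%. Pax7, Cdh15 and Des were lowest at 1%, and Itga7 was highest there. Laptm5 was highest at 4%, while Cd68 and the fibroblast marker Ly6a were highest at 1%. The part of these markers in the results below was not tested. In bulk RNA, fewer cells of a type and less RNA per cell cannot be told apart.

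Taken by their FPKM, which is per length and so can be set side by side between genes, the subunits of the complete proteasome formed a narrow band. At 20% pO2 with vehicle, the 14 constitutive core subunits ranged from 86.6 FPKM for Psma2 to 235 FPKM for Psmb6, a 2.72-fold span. Within the complete particle, the 6 ATPases of the base were the most even class, from 109 FPKM for Psmc2 to 158 FPKM for Psmc1, a 1.45-fold span, and the 11 other base and lid subunits ran from 67.9 FPKM for Psmd11 to 161 FPKM for Psmd7. The immunoproteasome subunit Psmb10 stood far below its class at 17.8 FPKM. The 3 base chaperones were at 13.9 to 31.5 FPKM and the 4 core chaperones at 25.1 to 31.4 FPKM, so that each chaperone was below every subunit of the complete particle other than Psmb10. All 44 members together made up 0.842% and 0.864% of the summed FPKM at 20% pO2, 0.739% and 0.739% at 4%, and 0.772% and 0.783% at 1%, each time with vehicle first.

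**Figure D1:**
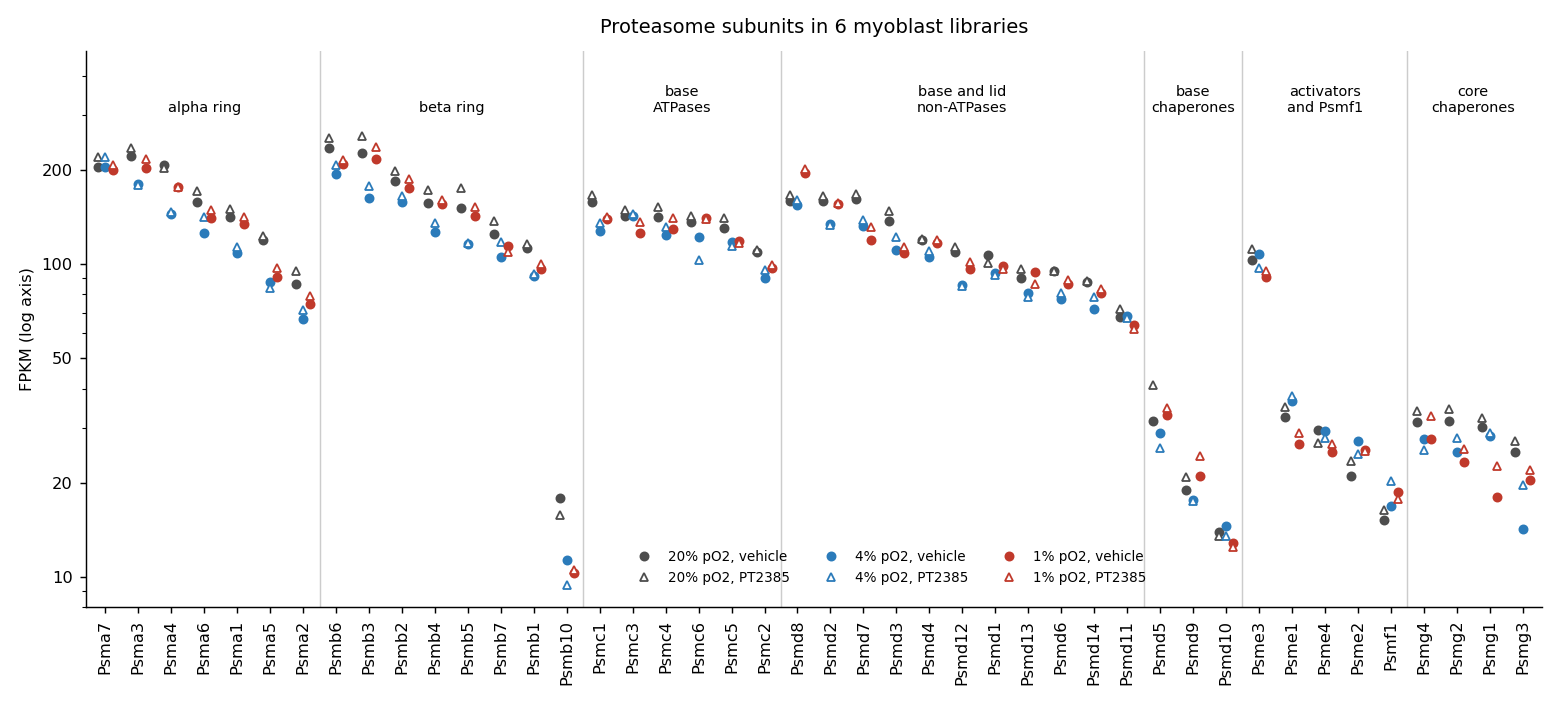
FPKM on a log axis of the 44 measured members, grouped by class and ordered by mean level within it, with 1 point per library (filled circles vehicle, open triangles PT2385, colour pO2). The core and regulatory particle subunits other than Psmb10 lie between 62.0 and 258 FPKM, and the chaperones lie between 12.4 and 41.0 FPKM.

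To ask how oxygen bears on these genes, libraries at each hypoxic level were set against those at 20% pO2. At 4% pO2 most members were lower: 30 of the 44 fell and 0 rose (limma, adjusted p under 0.05). Of all 11967 genes tested, 22.7% were called lower and 27.5% higher, against 68.2% and 0% of the members. The median difference of the members on the log2(FPKM + 1) scale was -0.25 in the vehicle libraries and -0.28 in the PT2385 libraries, pairs that have no library in common, where all genes had medians of 0.022 and 0.023. In both arms alike, 36 members (81.8%) were lower and 4 (9.09%) were higher, against 39.3% and 44.1% of all genes. Because highly expressed genes as a whole leaned lower, the same counts were made for the 1974 genes that averaged 50 FPKM or more: 38.4% were called lower, with a median of -0.076, against 27 of the 32 members at that level (84.4%), with a median of -0.28. Lower in both arms were 53.9% of these genes and 29 of the 32 members (90.6%).

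The test was a limma fit of all 6 libraries with pO2 and treatment as additive terms. Its residual spread holds only how the treatment difference varied between pO2 levels, and libraries of one level may share cultures, so its p-values can be too small. Leaving out each library in turn left 21 to 28 members called lower at 4%, fewest without either library at 20% pO2, and 19 of the 30 calls held in every such fit. Rescaling all libraries to the same sum of FPKM moved the median to -0.21 and kept 26 of the 30 calls.

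At 1% pO2 the difference from 20% was smaller and less uniform. Here 19 members fell and 1, Psmd8, rose (limma), against 21.9% of all genes called lower and 25% called higher. The members' share called lower was 43.2%. Their median difference of log2(FPKM + 1) was -0.13 with vehicle and -0.15 with PT2385, and 37 of 44 (84.1%) were lower in both arms. The same was true of 40.9% of all genes. At a mean of 50 FPKM or more, it was true of 29 of 32 members (90.6%) and 54.4% of genes. Of the genes that averaged 50 FPKM or more, 37.7% were called lower, with a median of -0.076, beside 15 of 32 members (46.9%), with a median of -0.15, so the share of calls was closer to that of other highly expressed genes than at 4%. The number of lower calls was 7 without the 20% vehicle library, 7 without the 20% PT2385 library, 7 without the 1% PT2385 library and 10 without the 1% vehicle library. The calls that held in all 6 such fits were those of Psma5, Psmd3, Psmd7 and Psmg2 downwards and of Psmd8 upwards. Both comparisons use the same libraries at 20% pO2.

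The direct comparison of 1% with 4% pO2 gave 15 members higher (34.1%) and 2 lower (4.55%) by limma, where 20.7% of all genes were called higher and 22.3% lower. Of the genes that averaged 50 FPKM or more, 31.2% were called higher and 28.4% lower. Of the 32 members at that level, 14 were called higher (43.8%) and 0 lower. The median of the members' differences on the log2(FPKM + 1) scale was 0.12 with vehicle and 0.10 with PT2385. In both arms, 28 of the 44 members (63.6%) were higher at 1% than at 4% and 11 (25%) were lower. The shares were 40.1% and 41.3% of all genes. At a mean of 50 FPKM or more, 25 of 32 members (78.1%) were higher and 6 (18.8%) lower, against 46.4% and 42% of genes. Only 4 of the 15 upward calls, those of Psma1, Psma4, Psmb3 and Psmd8, held without each library in turn, and the upward count fell to 4 without the 1% vehicle library, 5 without the 1% PT2385 library and 6 without the 4% PT2385 library. The downward calls were those of Psme1 and Psmg1, with 1 left without the vehicle library at 4% or at 1% and 3 without the 4% PT2385 library. With all libraries rescaled to the same sum, the median was 0.054.

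**Figure D2:**
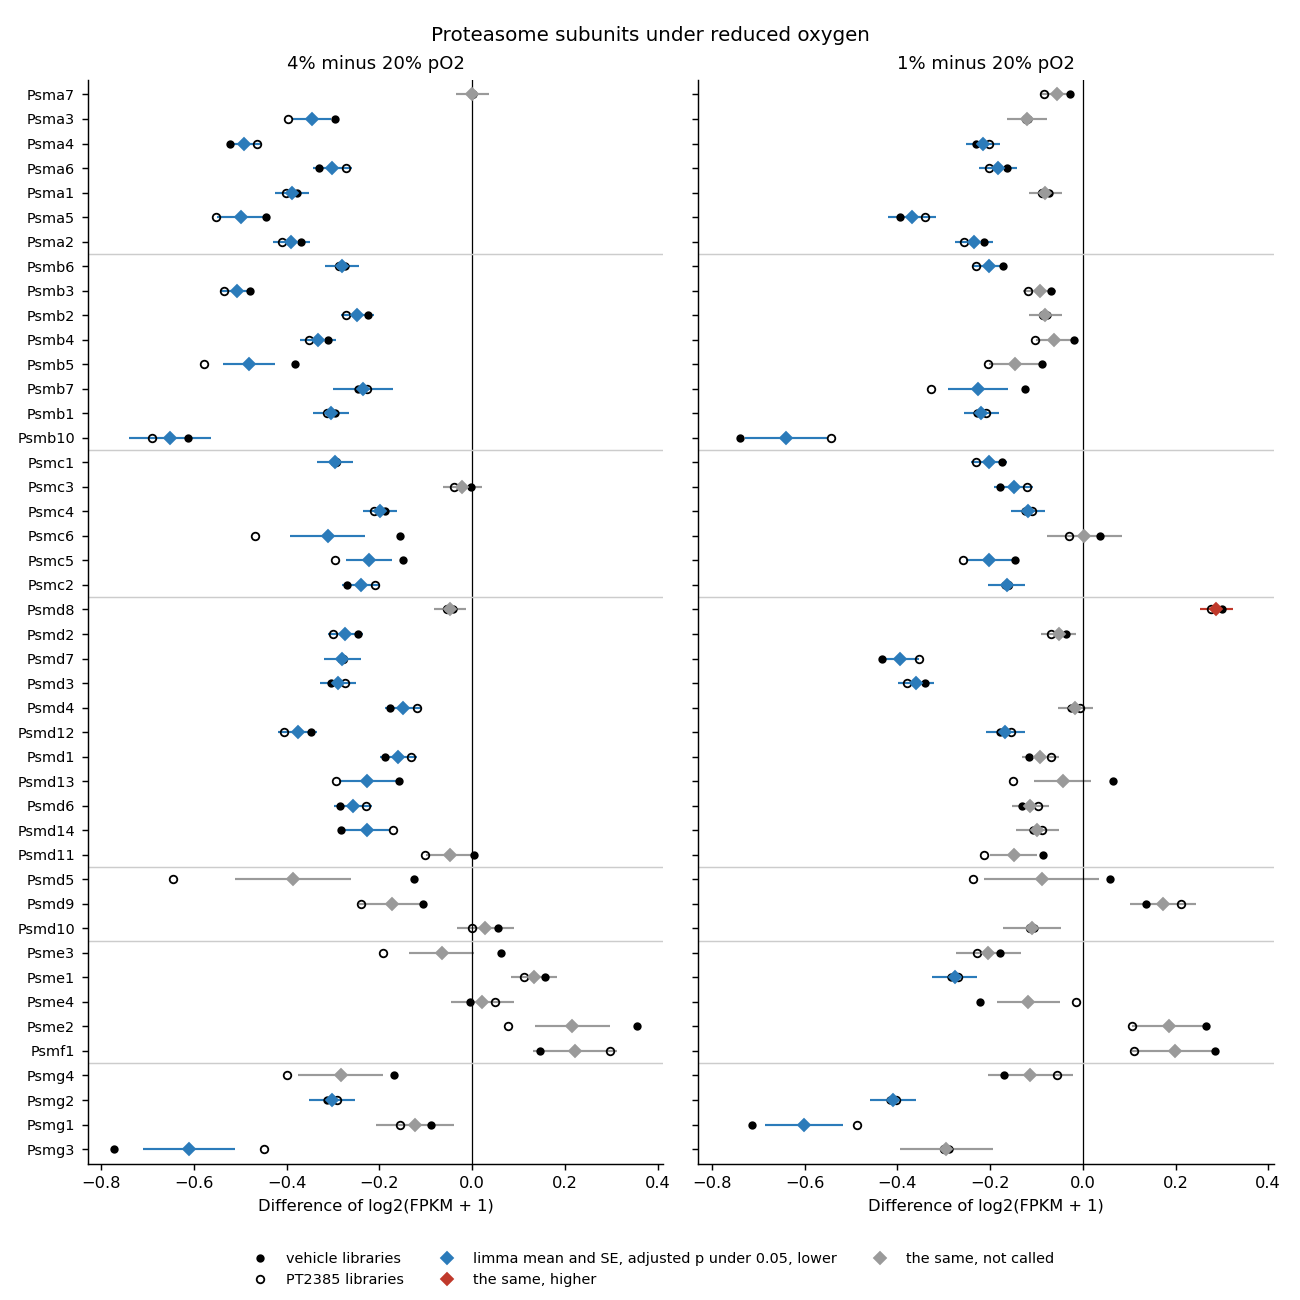
Differences of log2(FPKM + 1) for the 44 members, 4% minus 20% pO2 on the left and 1% minus 20% pO2 on the right, with classes separated by grey lines. Black points are the vehicle and open points the PT2385 libraries, and diamonds with bars are the limma mean and its SE, coloured by call. At 4% the alpha, beta and base and lid members other than Psma7 have limma means left of 0 with 28 calls, at 1% most lie closer to 0 and Psmd8 lies alone on the right with a call.

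In the alpha ring, 6 of 7 measured subunits (85.7%) fell at 4% pO2, with a class median of -0.39 on the log2(FPKM + 1) scale. At 1%, 4 fell (57.1%). The shares called lower at 4% and 1% were 22.7% and 21.9% of all genes. They were 38.4% and 37.7% of genes that averaged 50 FPKM or more. In what follows, the 6 values of a gene are given in FPKM with vehicle before PT2385 at each level. Psma5 was at 119.6 and 123 FPKM at 20% pO2, at 87.7 and 83.7 at 4%, and at 90.7 and 97.0 at 1%. Psma2 was at 86.6 and 94.8 FPKM at 20%, at 66.8 and 71.1 at 4%, and at 74.5 and 79.2 at 1%. In both genes every hypoxic library lay below both normoxic ones, and the libraries at 4% were the lowest. The difference of Psma5 in log2(FPKM + 1) was -0.50 ± 0.05 (SE, n = 6 libraries) at 4% and -0.37 ± 0.05 at 1% (limma adjusted p = 0.00141 and 0.00406). That of Psma2 was -0.39 ± 0.04 at 4% and -0.24 ± 0.04 at 1% (limma adjusted p = 0.00138 and 0.00764), and the latter call was lost without the PT2385 library at 20% (-0.21) or at 1% (-0.22).

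Psma4 is shown because it had, with Psma5, the largest fall at 4% in this ring. It was at 207 and 203 FPKM at 20% pO2, at 144 and 147 at 4%, and at 177 and 177 at 1%. The treatments were nearly superimposed at each level, and the 3 levels did not overlap. Its difference of log2(FPKM + 1) was -0.49 ± 0.04 at 4% against 20% and 0.28 ± 0.04 at 1% against 4% (limma adjusted p = 0.00048 and 0.00436). Both use the 4% libraries for whose low level Psma4 was picked, so they are not separate results. Psma1 was at 141.5 and 150.3 FPKM at 20%, at 109 and 114 at 4%, and at 134 and 141.3 at 1%, so that the fall at 4% (-0.39 ± 0.04 on the log2 scale, limma adjusted p = 0.000978) was not matched by a call at 1% (-0.08 ± 0.04, limma adjusted p = 0.126).

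Psma7 did not follow the ring. It was at 205 and 220.3 FPKM at 20% pO2, at 205 and 220.1 at 4%, and at 201 and 208 at 1%. Its difference of log2(FPKM + 1) at 4% was 0.00 with vehicle and 0.00 with PT2385, with a limma SE of 0.04. Set against the median of the 14 constitutive core subunits in the same library, Psma7 was at 1.298 and 1.265 times that median at 20%, at 1.626 and 1.589 times at 4%, and at 1.348 and 1.328 times at 1%. It became the most abundant core transcript at 4%, ahead of Psmb6.

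All 8 measured beta subunits fell at 4% pO2, with a class median of -0.32 on the log2(FPKM + 1) scale, and 4 (50%) fell at 1%. The shares of all genes called lower were 22.7% at 4% and 21.9% at 1%. They were 38.4% and 37.7% of genes that averaged 50 FPKM or more, a level that all of these but Psmb10 reached. Psmb5 encodes the chymotrypsin-like cutting site. It was at 151.6 and 176 FPKM at 20% pO2, at 116 and 117 at 4%, and at 142 and 152.1 at 1%. The libraries at 4% were the lowest under both treatments, and the PT2385 library at 1% reached the level of the vehicle library at 20%. The difference of log2(FPKM + 1) was -0.48 ± 0.06 at 4% (limma adjusted p = 0.00198), and at 1% it was -0.15 ± 0.06 and not called (limma adjusted p = 0.0843). From 4% to 1% it rose by 0.33 ± 0.06 (limma adjusted p = 0.00868), a call that was lost without the 4% PT2385 library (0.26), the 1% vehicle library (0.32) or the 1% PT2385 library (0.34).

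Psmb6, the caspase-like site, was at 235 and 253 FPKM at 20% pO2, at 194 and 207 at 4%, and at 209 and 215 at 1%. Its difference of log2(FPKM + 1) was -0.28 ± 0.04 at 4% and -0.20 ± 0.04 at 1% (limma adjusted p = 0.0026 and 0.0083), with the call at 1% lost without the PT2385 library at 20% (-0.18) or at 1% (-0.18). Psmb7, the trypsin-like site, was at 125 and 138 FPKM at 20%, at 105 and 118 at 4%, and at 114 and 109.6 at 1%. It fell at both levels, by 0.24 ± 0.06 and by 0.23 ± 0.06 on the log2 scale (limma adjusted p = 0.0318 and 0.0382). These were the least secure calls of the 3 sites. The call at 4% was lost without any 1 of the 4 libraries it compares (-0.18 to -0.30) and with rescaling to the same sum (-0.18), and that at 1% without either 20% library (-0.27 and -0.18) or the 1% PT2385 library (-0.12).

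Of the beta subunits without a cutting site, Psmb3 had the largest fall at 4% and is named for that. It was at 227 and 258 FPKM at 20% pO2, at 162 and 177 at 4%, and at 217 and 237 at 1%. Its difference of log2(FPKM + 1) was -0.51 ± 0.04 at 4% against 20% and 0.41 ± 0.04 at 1% against 4% (limma adjusted p = 0.000415 and 0.00146). The difference at 1% against 20% was -0.09 ± 0.04 and not called (limma adjusted p = 0.0873). Since Psmb3 was picked for its low level at 4%, the rise from 4% to 1% is not a separate result. Psmb4 was at 157 and 173 FPKM at 20%, at 127 and 135 at 4%, and at 155 and 161 at 1%. Psmb2 was at 185 and 199 FPKM at 20%, at 158 and 165 at 4%, and at 176 and 188 at 1%. In both, the levels at 1% and 20% overlapped and those at 4% stood below, with called differences at 4% of -0.33 ± 0.04 for Psmb4 and -0.25 ± 0.04 for Psmb2 on the log2 scale (limma adjusted p = 0.0021 and 0.00394).

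**Figure D3:**
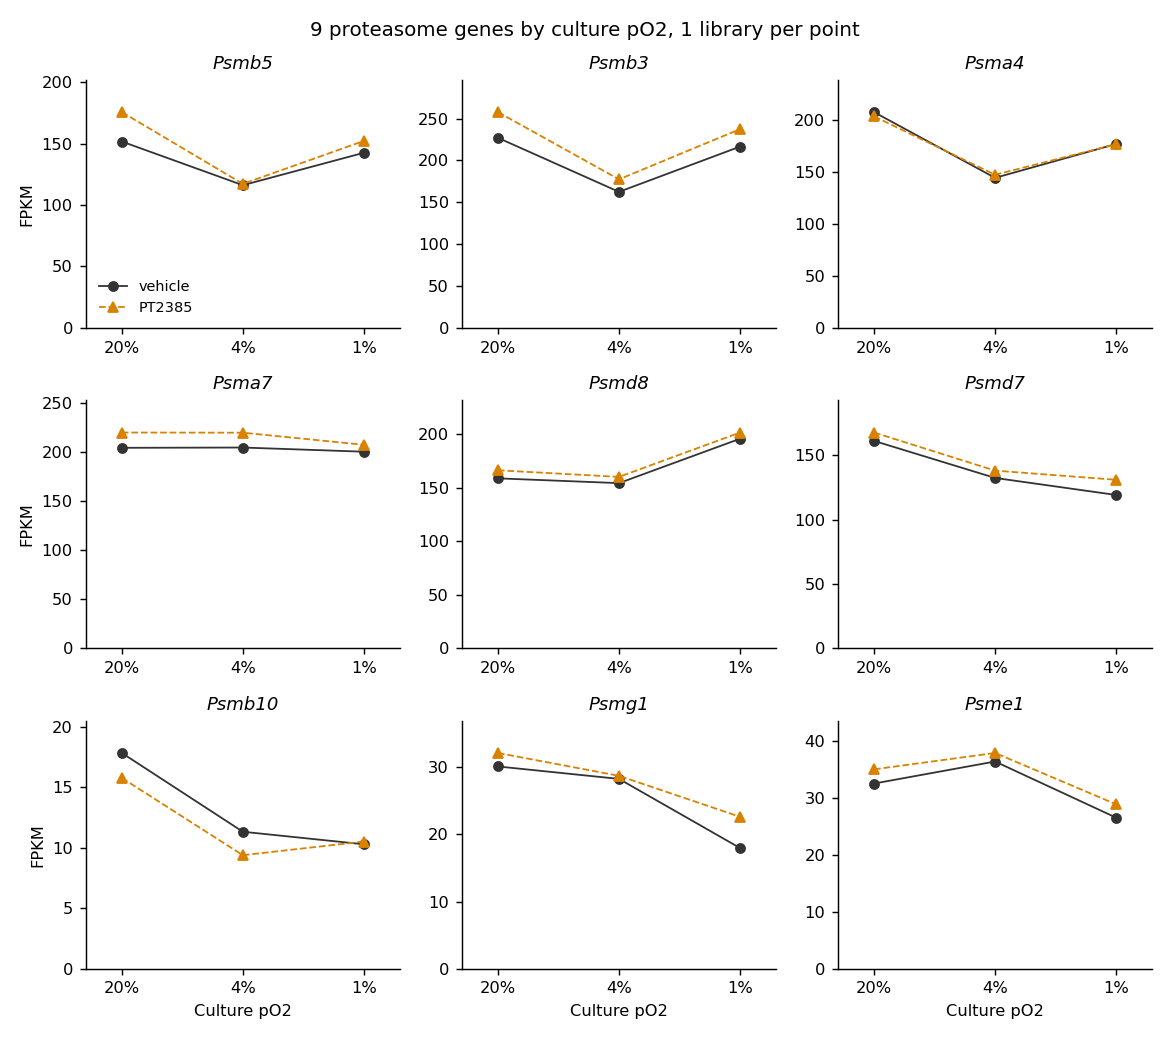
FPKM of 9 members by culture pO2 on axes that start at 0, with 1 library per point, vehicle as circles and PT2385 as triangles. Psmb5, Psmb3 and Psma4 dip at 4%, Psma7 stays between 201 and 220.3 FPKM, Psmd8 is highest at 1%, and Psmd7, Psmb10 and Psmg1 end below their normoxic level.

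The promoters of 6 core and lid genes are printed because these genes mark the different courses: Psma4, Psmb3, Psmb5 and Psmb6 fell at 4% pO2, Psma7 was not called, and Psmd8 rose at 1%. Each is the stretch of 200 bases before the gene start in RefSeq, build GRCm38.p6, written 5′ to 3′ on the gene's strand. Capitals mark the core TGACNNNGC of the antioxidant response element, bound by Nfe2l1 and Nfe2l2, and the cores ACGTG and GCGTG of the hypoxia response element, bound by HIF, on either strand. The positions are chr9:54950659-54950858 (plus strand) for Psma4, chr2:180042465-180042664 (minus) for Psma7, chr11:97703234-97703433 (plus) for Psmb3, chr14:54617996-54618195 (minus) for Psmb5, chr11:70525157-70525356 (plus) for Psmb6 and chr7:29180674-29180873 (minus) for Psmd8.
Psma4: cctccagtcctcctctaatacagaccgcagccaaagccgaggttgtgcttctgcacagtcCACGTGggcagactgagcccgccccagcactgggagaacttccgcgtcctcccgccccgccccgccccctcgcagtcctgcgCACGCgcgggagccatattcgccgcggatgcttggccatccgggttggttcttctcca
Psma7: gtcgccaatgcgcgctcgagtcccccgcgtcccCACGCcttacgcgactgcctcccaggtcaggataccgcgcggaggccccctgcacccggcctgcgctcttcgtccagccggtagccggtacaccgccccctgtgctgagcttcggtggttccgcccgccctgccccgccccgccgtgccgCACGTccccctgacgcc
Psmb3: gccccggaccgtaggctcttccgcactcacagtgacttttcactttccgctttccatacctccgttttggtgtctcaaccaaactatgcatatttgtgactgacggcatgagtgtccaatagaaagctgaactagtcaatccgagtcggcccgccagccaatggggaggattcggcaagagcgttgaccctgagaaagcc
Psmb5: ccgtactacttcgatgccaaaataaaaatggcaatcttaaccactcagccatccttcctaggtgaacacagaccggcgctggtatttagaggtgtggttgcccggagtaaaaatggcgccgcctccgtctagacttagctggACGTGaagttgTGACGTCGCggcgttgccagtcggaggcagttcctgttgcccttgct
Psmb6: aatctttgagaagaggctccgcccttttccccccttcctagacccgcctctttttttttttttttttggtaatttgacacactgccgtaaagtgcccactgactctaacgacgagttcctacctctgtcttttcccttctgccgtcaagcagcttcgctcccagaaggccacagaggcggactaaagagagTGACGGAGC
Psmd8: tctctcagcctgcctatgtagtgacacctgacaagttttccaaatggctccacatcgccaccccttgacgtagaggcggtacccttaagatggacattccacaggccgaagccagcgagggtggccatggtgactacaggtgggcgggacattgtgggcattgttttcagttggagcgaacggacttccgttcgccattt

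In Psmb5 the antioxidant response element core TGACGTCGC starts 47 bases before the gene start, with an ACGTG core 58 bases before it. In Psmb6 the core TGACGGAGC starts 9 bases before the gene start. Psma4 holds the palindrome that reads ACGTG on both strands and a GCGTG core, Psma7 holds one of each, and neither has an antioxidant response element core. Psmb3 and Psmd8 hold none of the 3 in these bases.

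RefSeq windows of 300 bases, 250 before to 50 after the start, were found for 38 of the 46 members (not for Psma8, Psmb1, Psmb2, Psmb7, Psmc3, Psmd3, Psmd7 and Psmg2). Searched on both strands, TGACNNNGC was present in 6 of them (15.8%) and in 14% of 27025 genes. The 6 were Psmb5, Psmb6, Psmc6, Psmd12, Psmd9 and Psme4, of which the 4 particle subunits fell at 4% pO2 and Psmd9 and Psme4 were not called. ACGTG was present in 8 members (21.1%) and 21.8% of genes, and GCGTG in 20 members (52.6%) and 35.2% of genes. CCAAT, a box common near gene starts, was present in 13 members (34.2%) and 41.1% of genes. The motifs can share letters, and a match describes the letters alone.

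Of the 6 ATPases of the base, which form the unfolding ring, 5 fell at 4% pO2 and 5 at 1%, with class medians of -0.23 and -0.16 on the log2(FPKM + 1) scale. That is 83.3% at both levels, against 22.7% and 21.9% of all genes called lower. Among genes that averaged 50 FPKM or more, as all 6 did, the shares were 38.4% and 37.7%. Psmc1 was at 158 and 166 FPKM at 20% pO2, at 128 and 135 at 4%, and at 139.5 and 142 at 1%. Psmc5 was at 131 and 140.4 FPKM at 20%, at 118 and 114 at 4%, and at 118 and 117 at 1%. Every hypoxic library of both genes was below both normoxic ones. Their differences of log2(FPKM + 1) at 1% were both -0.20, with an SE of 0.04 for Psmc1 and 0.05 for Psmc5 (limma adjusted p = 0.0102 and 0.0233). The call of Psmc1 was lost without the 20% vehicle (-0.22), the 20% PT2385 (-0.19) or the 1% PT2385 (-0.17) library. The call of Psmc5 was lost without the 20% PT2385 (-0.14), the 1% vehicle (-0.22) or the 1% PT2385 (-0.18) library.

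At the other end of the ring, Psmc6 was at 137 and 143 FPKM at 20% pO2, at 123 and 103 at 4%, and at 140.1 and 139.8 at 1%. The treatments parted at 4%, so its call there (-0.31 ± 0.08 on the log2 scale, limma adjusted p = 0.0267) rested on a vehicle difference of -0.15 and a PT2385 difference of -0.47, and it held only in the fit without the 4% vehicle library. Psmc4 was at 142 and 152 FPKM at 20%, at 124 and 131 at 4%, and at 129.9 and 141 at 1%, and its call at 1% (-0.12 ± 0.04, limma adjusted p = 0.0484) was lost in all 6 fits that left out a library (-0.13 to -0.10) and in 6 of the other settings. Psmc3 was the ATPase not called at 4%, with a difference of -0.02 ± 0.04 on the log2 scale. The calls of Psmc2 and Psmc3 at 1% were each lost without any 1 of the libraries they compare.

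Of the 11 other base and lid subunits, 9 fell at 4% pO2 (81.8%), and at 1% 3 fell (27.3%) and 1 rose. Of all genes, 22.7% were called lower at 4% and 21.9% at 1%. Among genes that averaged 50 FPKM or more these shares were 38.4% and 37.7%, so the falls at 1% were not above that background. The one that rose was Psmd8, a lid subunit that in yeast is needed for the lid to join the base. It was at 159 and 166 FPKM at 20% pO2, at 154 and 160.1 at 4%, and at 196 and 201 at 1%. The 1% libraries were above the other 4 without overlap, and Psmd8 moved from below Psmd7 at 20% to the highest level of its class at 4% and at 1%. Its difference of log2(FPKM + 1) at 1% was 0.30 with vehicle and 0.28 with PT2385, for a mean of 0.29 ± 0.03 against 20% (limma adjusted p = 0.0024) and 0.34 ± 0.03 against 4% (limma adjusted p = 0.00221).

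Psmd7, the partner of the deubiquitinating subunit Psmd14 in the lid, had the opposite course. It was at 161 and 168 FPKM at 20% pO2, at 133 and 138 at 4%, and at 119 and 131 at 1%. Psmd3, another lid subunit, was at 138 and 147 FPKM at 20%, at 111 and 122 at 4%, and at 109 and 113 at 1%. All hypoxic libraries of both genes were below both normoxic ones. The differences of log2(FPKM + 1) at 1% against 20% were -0.39 ± 0.04 for Psmd7 and -0.36 ± 0.04 for Psmd3 (limma adjusted p = 0.00147 and 0.00179). Psmd4, a ubiquitin receptor of the base, was at 119.5 and 120.1 FPKM at 20%, at 106 and 110.5 at 4%, and at 117 and 119.7 at 1%, and its small call at 4% (-0.15 ± 0.04, limma adjusted p = 0.0273) was lost in all 6 fits that left out a library (-0.17 to -0.12) and with rescaling to the same sum (-0.093). The deubiquitinase Psmd14 itself fell at 4% (-0.23 ± 0.05, limma adjusted p = 0.0132), a call lost without either 20% library (-0.19 and -0.26) or the 4% vehicle library (-0.18), and was not called at 1%, while Psmd11, which clamps base to core, was called at neither level.

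Psmb10, the trypsin-like subunit that takes the place of Psmb7 in the immunoproteasome, had the largest fall of any member at both levels. It was at 17.8 and 15.8 FPKM at 20% pO2, at 11.3 and 9.38 at 4%, and at 10.3 and 10.5 at 1%. Its 4 hypoxic libraries lay below both normoxic ones. The difference of log2(FPKM + 1) was -0.65 ± 0.09 at 4% and -0.64 ± 0.09 at 1% (limma adjusted p = 0.00316 and 0.00368), and the call at 1% was lost without the 20% vehicle library (-0.61). The other inducible sites, Psmb8 and Psmb9, which the naming rule leaves out, did not exceed 0.555 and 0.611 FPKM.

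The activators did not fall with the particle at 4% pO2: 0 of 5 genes, counting the regulator Psmf1, were called in either direction, with a class median of 0.13 on the log2(FPKM + 1) scale. Of all genes, 22.7% were called lower and 27.5% higher at that level. Psme1 and Psme2 encode the subunits of the interferon-induced activator ring. Psme1 was at 32.5 and 35.0 FPKM at 20% pO2, at 36.4 and 37.9 at 4%, and at 26.5 and 28.9 at 1%. Psme2 was at 21.0 and 23.4 FPKM at 20%, at 27.2 and 24.8 at 4%, and at 25.5 and 25.3 at 1%. These partners therefore parted at 1%, where Psme1 was in its lowest libraries and Psme2 was above its normoxic ones. Psme1 fell from 4% to 1% by 0.41 ± 0.05 on the log2 scale (limma adjusted p = 0.00335), a call that held without each library. Its call at 1% against 20% (-0.28 ± 0.05, limma adjusted p = 0.00853) was lost without either 20% library (-0.28 and -0.27) or either 1% library (-0.26 and -0.30). The differences of Psme2 were 0.22 ± 0.08 at 4% and 0.19 ± 0.08 at 1%, not called (limma adjusted p = 0.0742 and 0.114), and with rescaling to the same sum Psme1 and Psme2 were called higher at 4%, by 0.19 and 0.27. Psme2b, a near copy of Psme2, was at 0.604 FPKM or less.

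Leukocyte markers are set beside Psmb10, Psme1 and Psme2, since leukocytes express these genes strongly. The sum of the 8 markers was 4.39 and 5.04 FPKM at 20% pO2, 93.6 and 103 FPKM at 4%, and 20.7 and 22.9 FPKM at 1%, mostly Laptm5 and Cd68. The defining markers Adgre1, Cd52 and Tyrobp were at 0 in every library, as said above. Psmb10 was lower at both levels at which this sum was higher, and the highest libraries of Psme1 were those with the highest sum. The part of leukocytes in these values was not tested.

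The other activators were not called against 20% pO2. Psme3, the nuclear activator, was at 103 and 112 FPKM at 20% pO2, at 108 and 97.5 at 4%, and at 91.1 and 95.1 at 1%. Psme4, the large single-chain activator, was at 29.4 and 26.8 FPKM at 20%, at 29.3 and 27.8 at 4%, and at 25.1 and 26.6 at 1%. Psme3 was by far the most abundant of the class in every library, and neither gene was called at 4% or at 1% (limma adjusted p = 0.475 and 0.064 for Psme3, 0.81 and 0.215 for Psme4). Psmf1, which binds the core and inhibits it in vitro, was at 15.2 and 16.3 FPKM at 20%, at 16.9 and 20.3 at 4%, and at 18.7 and 17.7 at 1%, above its normoxic libraries at both levels without a call (limma adjusted p = 0.0969 and 0.134).

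The core chaperones act as pairs, Psmg1 with Psmg2 and Psmg3 with Psmg4, that build the alpha ring. Psmg1 was at 30.1 and 32.1 FPKM at 20% pO2, at 28.3 and 28.7 at 4%, and at 17.98 and 22.6 at 1%. Psmg2 was at 31.4 and 34.3 FPKM at 20%, at 25.1 and 27.9 at 4%, and at 23.3 and 25.7 at 1%. Within this pair Psmg2 was called lower at both levels and Psmg1 at 1% alone. The difference of Psmg1 in log2(FPKM + 1) was -0.12 ± 0.08 at 4% and -0.60 ± 0.08 at 1% (limma adjusted p = 0.274 and 0.00392), the latter lost without the 20% vehicle library (-0.56). Its fall from 4% to 1% was called (-0.48 ± 0.08, limma adjusted p = 0.0099) and lost without the 4% (-0.39) or the 1% (-0.35) vehicle library. The differences of Psmg2 were -0.30 ± 0.05 and -0.41 ± 0.05 (limma adjusted p = 0.00608 and 0.00245), and the former was lost without either 20% library (-0.29 and -0.31).

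In the other pair, Psmg3 was at 25.1 and 27.2 FPKM at 20% pO2, at 14.3 and 19.7 at 4%, and at 20.3 and 21.9 at 1%. Psmg4 was at 31.1 and 34.0 FPKM at 20%, at 27.6 and 25.5 at 4%, and at 27.6 and 32.6 at 1%. Psmg3 had the second largest fall of all members at 4%, with -0.77 in vehicle and -0.45 in PT2385 libraries on the log2 scale (limma mean -0.61 ± 0.10, adjusted p = 0.00589), a call lost without the 20% vehicle library (-0.53). Psmg4 was not called at either level (limma adjusted p = 0.0512 and 0.355). These transcripts gave few fragments, with 142 to 337 estimated fragments per library for Psmg3 and Psmg4. A counting error of up to 0.17 on the log2 scale thus stands behind each difference between a pair of libraries.

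The base chaperones Psmd5, Psmd9 and Psmd10, which hold the ATPases during assembly, were not called at 4% or at 1% pO2. Psmd5 was at 31.5 and 41.0 FPKM at 20% pO2, at 28.8 and 25.9 at 4%, and at 32.9 and 34.7 at 1%. Psmd9 was at 19.0 and 20.9 FPKM at 20%, at 17.6 and 17.5 at 4%, and at 21.0 and 24.3 at 1%. Psmd9 had its lowest libraries at 4% and rose from there to 1% (0.35 ± 0.07 on the log2 scale, limma adjusted p = 0.0155), a call lost without the 4% PT2385 library (0.26) or either 1% library (0.42 and 0.28). Psmd10, known also as the oncoprotein gankyrin, was at 13.9 and 13.5 FPKM at 20%, at 14.5 and 13.5 at 4%, and at 12.9 and 12.4 at 1%.

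PT2385 was compared with vehicle to ask how much of these levels depends on HIF-2α activity. None of the 44 members was called higher or lower (limma, 0 at an adjusted p under 0.05), and the same held for all 11967 genes, of which 0% were called higher and 0% lower. At an unadjusted p under 0.05 there were 11 of 44 members and 1454 of all genes. No setting tried called a member, and across all genes 0 to 5 calls were made. The signs were less even than the calls. With PT2385, 24 members (54.5%) were higher at all 3 pO2 levels and 2 (4.55%) were lower at all 3. Of all genes, 18.9% were higher and 18.4% lower. At a mean of 50 FPKM or more, 20 of 32 members (62.5%) were higher and 1 (3.12%) lower, against 36.1% and 10.4% of genes. The members' median difference of log2(FPKM + 1) was 0.093 at 20% pO2, 0.041 at 4% and 0.056 at 1%. At a mean of 50 FPKM or more the medians were 0.085, 0.059 and 0.050 for members and 0.049, 0.034 and 0.027 for genes. With all libraries rescaled to the same sum, the members' median over the 3 levels was 0.024 and that of all genes was -0.034.

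**Figure D4:**
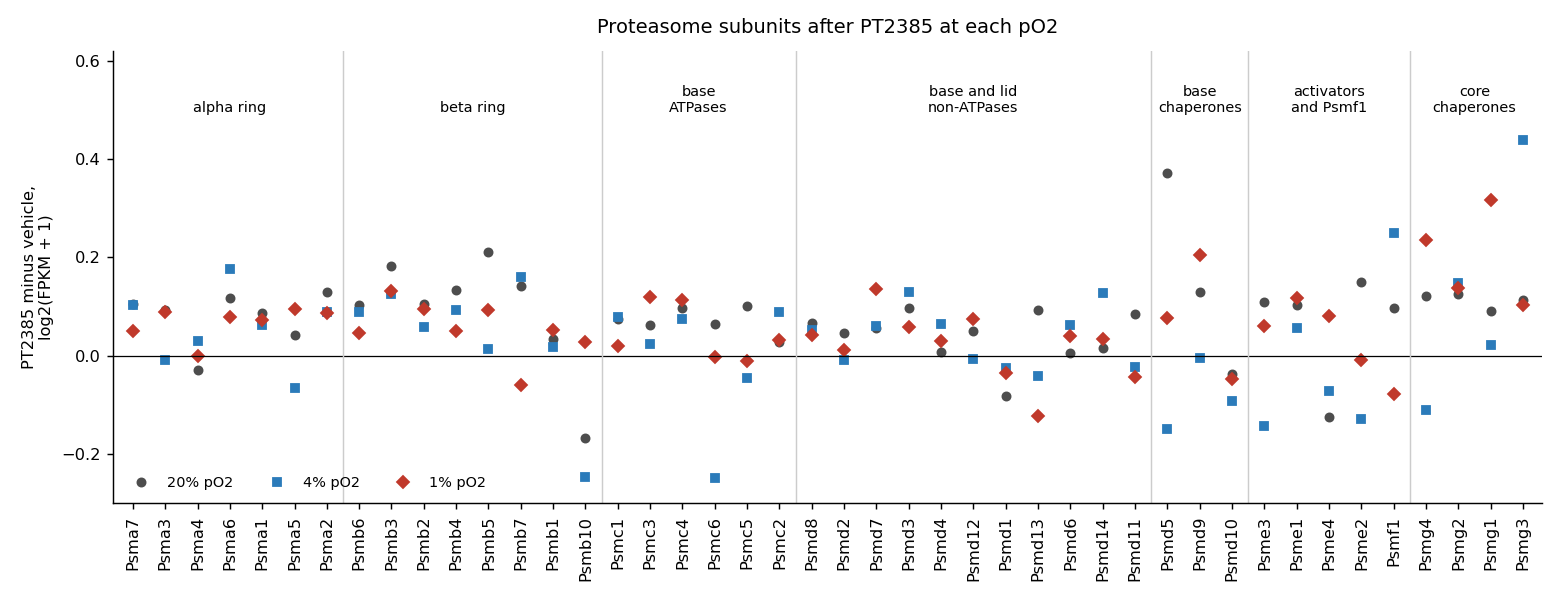
PT2385 minus vehicle on the log2(FPKM + 1) scale for the 44 members, with 1 point per pO2 level, each from 1 pair of libraries and without an error bar. Most points lie between 0 and 0.2, no member was called, and the widest spreads between levels are those of Psmd5, Psmg4 and Psmg3.

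In the beta ring 6 of 8 members were higher at all 3 levels, and among the core chaperones 3 of 4 were. So were 4 of 6 base ATPases, 4 of 7 alpha subunits and 6 of 11 other base and lid subunits. Of the activators with Psmf1 it was 1 of 5, and of the base chaperones 0 of 3. The share was 18.9% of all genes and 36.1% of those that averaged 50 FPKM or more. Psmb3 had the smallest p of the members, with PT2385 minus vehicle at 0.18, 0.13 and 0.13 on the log2 scale at 20%, 4% and 1% pO2 (limma mean 0.15 ± 0.03, adjusted p = 0.367). Psmb5 was higher by 0.21 at 20%, by 0.01 at 4% and by 0.09 at 1%. The gap at 20% pO2 was the larger one here, but whether the response to PT2385 depends on pO2 could not be tested, since that model leaves no residual spread. Psmb10 was the one beta subunit with a negative mean, at -0.17, -0.25 and 0.03. The mean difference of Psmb5 was 0.11 ± 0.05 and that of Psmb10 was -0.13 ± 0.07 (limma adjusted p = 0.426 and 0.518).

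Beside the members, 7 genes of the 26S particle and its partners without a Psm name were measured. At 4% pO2 3 of them fell and 0 rose, and at 1% 4 fell and 0 rose. These were shares of 42.9% and 57.1%, beside 22.7% and 21.9% of all genes called lower. The shares were 38.4% and 37.7% of genes that averaged 50 FPKM or more, a level that all but Uchl5 and Ecpas reached. Adrm1 and Sem1 were called at neither level. At 4% their differences of log2(FPKM + 1) were 0.01 and 0.08 for Adrm1 and 0.11 and 0.12 for Sem1, with vehicle first. Uchl5, a deubiquitinase bound to the base, was at 47.4 and 50.02 FPKM at 20% pO2, at 31.9 and 33.0 at 4%, and at 28.9 and 31.0 at 1%, differences of -0.57 ± 0.05 and -0.68 ± 0.05 on the log2 scale (limma adjusted p = 0.000685 and 0.000467). Ecpas, whose yeast counterpart ties core to regulatory particle, was at 24.5 and 23.9 FPKM at 20%, at 27.1 and 28.4 at 4%, and at 19.1 and 21.4 at 1%, called at 1% alone (-0.25 ± 0.07, limma adjusted p = 0.0317), a call lost in all 6 fits that left out a library (-0.32 to -0.17). Pomp, the maturation factor of the core, was at 106 and 117 FPKM at 20%, at 119 and 125 at 4%, and at 122 and 112 at 1%. It was called at neither level.

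Of 7 measured genes for the transcription of proteasome genes, 4 rose and 1 fell at 4% pO2, and 4 rose and 0 fell at 1%. The share higher was 57.1% at both levels, against 27.5% of all genes at 4% and 25% at 1%, on 7 genes. Nfe2l1, the factor that raises proteasome genes when the proteasome is blocked, was at 55.8 and 57.6 FPKM at 20% pO2, at 68.4 and 67.8 at 4%, and at 62.3 and 62.4 at 1%. Its transcript was highest in the libraries at 4%, with a difference of 0.26 ± 0.04 at 4% and 0.13 ± 0.04 at 1% on the log2 scale (limma adjusted p = 0.00633 and 0.0529). The call at 4% was lost without the 20% vehicle library (0.23). Nfe2l2, the related factor of the oxidative stress response, was the one that fell at 4%. It was at 93.9 and 94.7 FPKM at 20%, at 76.4 and 77.4 at 4%, and at 107 and 111 at 1%. Unlike Nfe2l1 it had its lowest libraries at 4%, with a difference of -0.29 ± 0.04 at 4% and 0.21 ± 0.04 at 1% on the log2 scale (limma adjusted p = 0.00304 and 0.00985), and the call at 1% was lost without any 1 of the libraries it compares (0.19 to 0.22). Maff, a small partner of these factors, was at 13.5 and 15.9 FPKM at 20%, at 30.2 and 29.8 at 4%, and at 38.0 and 39.1 at 1% (limma adjusted p = 0.000533 and 0.000257). Mafk, of the same family, was at 9.91 and 9.76 FPKM at 20%, at 9.21 and 10.1 at 4%, and at 14.1 and 13.5 at 1%, called at 1% alone (limma adjusted p = 0.00687), and not without either 20% library (0.48 and 0.43) or the 1% vehicle library (0.40).

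Of 17 measured genes for ubiquitin and the delivery of substrates, 6 rose and 5 fell at 4% pO2, and 6 rose and 2 fell at 1%. At 4% these were 35.3% and 29.4% of the list against 27.5% and 22.7% of all genes, and at 1% 35.3% and 11.8% against 25% and 21.9%. Zfand2a, a stress-induced cofactor, was at 7.88 and 7.69 FPKM at 20% pO2, at 9.76 and 12.5 at 4%, and at 25.2 and 25.4 at 1%, a difference of 1.58 ± 0.11 at 1% on the log2 scale (limma adjusted p = 0.000421). Sqstm1, the receptor that carries ubiquitinated cargo to autophagy, was at 199.5 and 209 FPKM at 20%, at 274 and 275 at 4%, and at 358 and 369 at 1% (limma adjusted p = 0.000642 and 0.000122). Both genes were higher at 4% than at 20% and higher again at 1% pO2. Rps27a, a ubiquitin gene fused to a ribosomal protein, was at 595 and 660.0 FPKM at 20%, at 419 and 429.9 at 4%, and at 530.3 and 549 at 1%. Rps27a was thus lowest at 4%, as most core subunits were, with differences of -0.56 ± 0.04 at 4% and -0.21 ± 0.04 at 1% on the log2 scale (limma adjusted p = 0.000431 and 0.0101). The call at 1% was lost without the 20% PT2385 (-0.16), the 1% vehicle (-0.24) or the 1% PT2385 (-0.19) library.

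Of 9 measured ligases and regulators of muscle atrophy, 4 were higher and 2 lower at 4% pO2, and 3 were higher and 2 lower at 1%. The share lower was 22.2% at both levels, near the 22.7% and 21.9% of all genes, and the share higher was 44.4% and 33.3% against 27.5% and 25%. Trim63, the ligase best known from wasting myofibres, was at 0.149 FPKM or less in these dividing cells. Fbxo32, another ligase of the list, was present, at 7.72 and 6.68 FPKM at 20% pO2, at 4.05 and 4.42 at 4%, and at 8.83 and 7.09 at 1%. It was called lower at 4% (-0.65 ± 0.12 on the log2 scale, limma adjusted p = 0.0084) and not called at 1% against 20%. Fits without single libraries are not given for it. Foxo1, which turns on atrophy genes in myofibres, was at 16.6 and 12.9 FPKM at 20% pO2, at 7.01 and 7.20 at 4%, and at 11.3 and 9.63 at 1% (-0.95 ± 0.11 and -0.45 ± 0.11 on the log2 scale, limma adjusted p = 0.00177 and 0.0216), with the call at 1% lost without any 1 of the libraries it compares (-0.57 to -0.32). Foxo1 thus had its lowest libraries at 4%, as most core subunits did. Foxo3 went the other way and was called higher at both levels (0.29 ± 0.07 and 0.26 ± 0.07 on the log2 scale, limma adjusted p = 0.0269 and 0.0395). For Foxo3, too, fits without single libraries are not given. The ligase Nedd4 was at 368 and 338 FPKM at 20%, at 404 and 399 at 4%, and at 300.1 and 303 at 1%, called higher at 4% and lower at 1% (limma adjusted p = 0.0196 and 0.011). Its call at 4% was lost without the 20% PT2385 library (0.13) or either 4% library (0.20 and 0.17), and that at 1% without the vehicle library at 20% (-0.17) or at 1% (-0.19). The ligase Cblb was at 4.71 and 4.77 FPKM at 20%, at 11.7 and 11.3 at 4%, and at 7.35 and 7.93 at 1%, higher at both levels (limma adjusted p = 0.00042 and 0.00347). The ligase Fbxo30 was at 11.3 and 11.1 FPKM at 20%, at 12.1 and 10.4 at 4%, and at 13.6 and 14.4 at 1%, called at 1% alone (limma adjusted p = 0.0409) and not without any 1 of the libraries compared (0.21 to 0.40).

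Among regulators of the interferon-induced members, Irf1, an activator of immunoproteasome genes, was at 8.47 and 7.76 FPKM at 20% pO2, at 13.2 and 13.3 at 4%, and at 11.2 and 10.4 at 1%. It was higher at both hypoxic levels, where Psmb10 was lower (limma adjusted p = 0.00171 and 0.0106), with the call at 1% lost without any 1 of the libraries it compares (0.34 to 0.41). Tap1, a peptide transporter that is induced together with these genes, was at 1.38 and 2.23 FPKM at 20%, at 1.98 and 1.62 at 4%, and at 4.64 and 4.45 at 1%, called higher at 1% (limma adjusted p = 0.0092) and not without either 1% library (0.91 and 1.09).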

How the data were processed

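The 6 libraries were grouped by the pO2 and treatment in the sample labels. The authors sequenced RNA on a DNBSEQ platform and deposited 1 table of 54834 genes, whose values were taken as FPKM because of their scale and of Cuffdiff 2.2.1 in the submitters' notes, which also list HISAT2 2.1.0, SAMtools 1.3.1 and Cufflinks. The supplementary methods name TopHat2 and GRCm38 gene models. Values were used as deposited, with no further scaling. GENCODE M21 held 54719 of the identifiers. Near copies can share fragments, and Psmb5, Psmb6 and Psmb7 have pseudogenes listed at 0.296 FPKM or less.

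Members had 142 to 10589 estimated fragments per library (median 2801). For a difference between a pair of libraries, that is a counting error of 0.17 at the lowest and 0.04 at the median on the log2 scale. limma 3.58.1 (R 4.3.3) was fitted to log2(FPKM + 1) of 11967 genes with a mean of at least 1 FPKM, with a trend in the variance, pO2 as a factor and treatment, and 2 residual degrees of freedom. p-values were adjusted by Benjamini-Hochberg over all of them, with a threshold of 0.05. The scale understates changes of low genes. The step was tested on simulated data. An error given with ± is the limma SE. Python 3.11.15, pandas 2.3.3, numpy 2.4.6 and matplotlib 3.10.9 were used.

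Members and lists were chosen with earlier results of these data known. All 6 values are printed for the catalytic subunits, activators and tissue-restricted members, in every other class for the 2 highest and 2 lowest by the 1% minus 20% difference, and from each associated list for Nfe2l1 and up to 2 in each direction. Some genes that this rule names are not reported here. Psma4, Psmb3, Psmc2, Psmc3, Psmd11, Psmd14, Adrm1, Sem1, Nfe2l2, Fbxo32 and Foxo3 were named after their values were seen. So were the markers Cdh15, Itga7 and Ly6a. The level of 50 FPKM was also set then. Other settings tried were 0.1 FPKM as the pseudocount, all genes kept or those that averaged 5 FPKM, rescaling by the median ratio or to the same sum, no trend, protein-coding genes alone, each treatment or pO2 alone, and leaving out each library.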

Additional observations from a re-analysis of the deposited data

How the results depend on the processing

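The members' median difference kept its direction in all 4 comparisons under every alternative, and no called member changed direction. On the log2(FPKM + 1) scale, rescaling to the same sum moved the median to -0.21 at 4% against 20% pO2, to 0.054 at 1% against 4% and to 0.024 for PT2385, with 2 members called higher at 4% (Psme1 and Psme2) in place of 0 and 4 called lower at 1% against 4% in place of 2. Rescaling by the median ratio moved the median at 1% against 20% to -0.11. Without the trend in the variance 11 members were called lower at 1% against 20% and 8 higher at 1% against 4%. By arm, the median was -0.15 at 1% against 20% in PT2385 libraries, 0.12 at 1% against 4% in vehicle libraries, and 0.093 for PT2385 at 20% pO2. Leaving out each library in turn gave medians of -0.29 to -0.25 at 4% against 20%, -0.15 to -0.12 at 1% against 20%, 0.10 to 0.11 at 1% against 4% and 0.053 to 0.073 for PT2385, and counts of 21 to 28 lower, 7 to 20 lower, 4 to 12 higher and 1 to 3 lower, and 0 respectively. These fits have 1 residual degree of freedom in place of 2. Of 3372 values of single genes under an alternative, 3060 kept their side of the threshold, 278 lost a call and 34 gained one. The fit compares PT2385 with vehicle within each pO2 level, so it is already paired for treatment, and the labels give no replicate number to add as a block. With 1 pooled library per condition, the spread between cultures was not measured, and fragment counts limit the weakly expressed members most, Psmg3, Psmg4 and Psmb10 among them.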
